A study of Mus musculus with 32 samples.

Results

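Of the 5550 genes expressed in the livers of these mice, 2212 (39.9%) held a long stretch of exon in the inside of the gene, and the recovery of their RNA by an antibody against N6-methyladenosine (m6A) is described here. The deposited count table lists the exons of each of 55421 genes. Listed exons of a gene that overlap were merged into intervals, and a gene was taken when it had 3 or more intervals, when an interval that was neither the first nor the last spanned 1000 bases or more, and when its mean level was at least 20 CPM (the count of a gene scaled to a common library total) over the 16 input libraries. The other 3338 genes at that level served for comparison. The genes were thus chosen by their exon structure and by 1 measured value, the mean input level. The choice used no difference between groups, but levels of these genes in the inputs as such are given as a description, and the ratio of IP to input shares with the choice the inputs it is divided by.

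The libraries came from 16 mice in 4 groups of 4, and each animal gave an input library and an m6A-IP library of the same liver. Animals carried either floxed Mettl14 (flox, the controls) or a Mettl14 knockout (KO), and had either a hepatectomy, the surgical removal of part of the liver that sets off regeneration, or a sham operation. The sham flox animals were 77, 77, 71 and 73 days old, the sham KO animals 73, 73, 73 and 72 days, the hepatectomy flox animals 73, 73, 72 and 72 days, and the hepatectomy KO animals 73, 73, 73 and 72 days. Mettl14 and its partner Mettl3 form the enzyme that writes m6A on mRNA. No source used here gives the Cre line or promoter behind the knockout or the time between surgery and sampling. The inputs were made with a stranded mRNA kit, whereas the IP libraries were made with a different kit from RNA broken to about 100 nucleotides and pulled down with the antibody, so a ratio of IP to input also carries the difference between both kits. For comparisons among inputs or among IP libraries, the p-values below measure the spread between these animals, which the labels list as separate samples. Those of the IP/input ratio and its differences came from fits over inputs and IP libraries together. These fits took both libraries of an animal as separate and used a common spread for each gene, although the inputs were more uneven. Their p-values therefore do not measure the spread between animals alone. Counts of calls from fits that pair both libraries are given further below.

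m6A is the commonest internal modification of mRNA. It is placed in the nucleus while the transcript is made, at a short sequence context, and proteins of the YTH family bind it and steer the splicing, export, translation and decay of the transcript. Methylated sites are known to gather in long internal exons and around stop codons. One account of that pattern is that exon junction complexes, which sit close to splice junctions, keep the methyltransferase away from RNA near them, so that only RNA far from a junction, as in a long exon, is open to it. In the liver, m6A has been studied in metabolism and in the division of hepatocytes.

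The stretches were long, but most were not single exons. The longest internal interval of a gene had a median of 2261.5 bases (quartiles 1557 and 3254.5, range 1001 to 19684). It was 1 listed exon in 228 of the 2212 genes (10.3%), a union of overlapping listed exons in 1134 (51.3%), and a union in which a listed exon spans an intron of another listed exon in 850 (38.4%). The name long internal exon therefore fits 228 genes strictly, and the genes are called here genes with a long internal interval. The interval lay in the middle of the gene in 1612 (72.9%), was the last but one in 314 and the second in 237, and was the only internal interval in 49. There was 1 such interval in 1374 genes, 2 in 538, 3 in 180, and 4 or more in 120. These genes were also longer and had more intervals than the other expressed genes, with a median exon length of 8068 against 3501 bases and a median of 14 against 8 intervals. Their mean input level was close, with a median of 51.9 against 48.6 CPM. The table gives 1 count for each gene, so reads on the long interval cannot be told from reads on the rest of the transcript.

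The titin gene Ttn, which encodes the giant elastic protein of striated muscle, had the longest interval that is a single listed exon, 17106 bases at chr2:76736064-76753169 on the minus strand, in coordinates of the deposited table (no source used here names their build). Its level was uneven, with input values of 0, 106, 36.7 and 0 CPM in the sham KO animals, and it had hardly any IP counts in either sham group. The longest interval of all belonged to Ube2d3, a ubiquitin-conjugating enzyme, with 19684 bases at chr3:135438480-135458163, but it joins 17 listed exons and the introns between some of them. Ahnak, a very large scaffold protein, had 17498 bases at chr19:9001699-9019196 from 2 overlapping listed exons. The proliferation antigen Ki-67 gene Mki67 had a single exon of 6836 bases at chr7:135694232-135701067, and Apob, the protein of very-low-density lipoprotein, had an interval of 7467 bases at chr12:8005736-8013202. Fga, which encodes the alpha chain of fibrinogen, the clotting protein made by hepatocytes, had a shorter one, 1431 bases at chr3:83030833-83032263, the last but one of its 6 intervals. At the lower limit of length, Sqor and Eif3a with 1001 bases were just inside, and Ipo9 with 998 and Crem with 999 bases just outside. At the limit of level, Phf8 and Prkag2 with 20.01 CPM each were just inside, and Smchd1 with 19.96 and Vac14 with 19.99 CPM just outside. Ordered by input CPM without regard to length, Fga (44389 CPM) and Apob (25105 CPM) came first, followed by Pzp, a protease inhibitor of plasma, with 3905 CPM and Cyp3a11, a drug-metabolising cytochrome, with 3019 CPM.

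Totals were 8177783 to 12533931 counts in the inputs and 7133766 to 24297853 in the IP libraries. Mettl14 itself had 0 counts in all 16 inputs, flox animals included, and at most 124 counts in an IP library, so its level does not check the genotype labels. The hepatocyte markers (7 of 7 found) summed to 35973 CPM or more in every input, as the label liver says, while the bile duct marker Krt19 was at 0 in all inputs. The inputs were uneven. Of the 2212 genes, 1749 (79.1%) had 0 counts in at least 1 input although all were chosen for a mean of 20 CPM, and 1742 (78.8%, against 75.4% of the other expressed genes) had within 1 group an input at 0 and another at 100 counts or more. In the IP libraries the latter applied to 501 (22.6%, against 22.5%). Between replicates of a group, log2 CPM of these genes correlated at 0.24 to 0.45 in the inputs and at 0.50 to 0.83 in the IP libraries, as a description over genes of the same libraries. The median standard deviation (SD) within a group was 2.93 log2 units in the inputs for genes below 100 CPM and 0.68 from 200 to 1000 CPM, against 0.71 and 0.39 in the IP libraries. The IP library of hepatectomy KO replicate 4 stood apart, with the lowest total and 16.5% of these genes at 0, against at most 2.22% in the other IP libraries of its group. Several results of the IP libraries that moved with it are given with and without it.

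The IP/input ratios of genes with a long internal interval were on average above those of the other expressed genes in 3 of 4 groups, by amounts of the order of the spread between animals. In each animal, the median over genes of log2((IP CPM + 1)/(input CPM + 1)) was taken for these genes and for the others, and the difference between both medians is given here without a test. It was 0.02, 0.11, 0.03 and 0.09 in the sham flox animals, 0.06, -0.31, 0.16 and -0.02 in the sham KO animals, -0.07, 0.35, 0.09 and 0.06 in the hepatectomy flox animals and 0.17, 0.19, 0.32 and 0.00 in the hepatectomy KO animals. The difference was above 0 in 12 of 16 animals, but every group except sham flox held an animal at or below 0, and the group means were 0.06 ± 0.05, -0.03 ± 0.20, 0.11 ± 0.18 and 0.17 ± 0.13 (SD, n = 4 each, same order). The medians themselves were 0.54 ± 0.40, 0.50 ± 0.22, 0.76 ± 0.23 and 0.26 ± 0.20 for the long-interval genes and had means of 0.48, 0.52, 0.65 and 0.09 for the others, so that the gap was largest beside its medians in the hepatectomy KO animals.

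The lowest of those medians was that of the hepatectomy KO animals. After hepatectomy the median of the long-interval genes was 0.69, 1.03, 0.83 and 0.49 in the flox and 0.34, 0.22, 0.47 and 0.00 in the KO animals, so that the animals did not overlap and the group means differed by -0.50. The inputs of these groups also differed in genes at 0. Of the long-interval genes, 26.67 to 34.04% were at 0 in the flox inputs and 5.33 to 15.51% in the KO inputs. The animals did not overlap in this share either, and its part in the ratios was not tested. In the sham inputs the shares were 18.26 to 33.36% in flox and 0.23 to 25.41% in KO animals, with overlap. The direction of the difference in medians depended on the genes taken. Among genes with at least 10 counts in both libraries of an animal, the medians of the long-interval genes were -0.38 in flox and -0.0092 in KO animals, the other way round. From 20 to below 50 CPM of mean input the median was 2.96 ± 0.63 in flox and 0.60 ± 0.49 in KO animals, from 50 to below 100 CPM it was 0.30 ± 0.17 and 0.26 ± 0.18, from 100 to below 200 CPM 0.09 ± 0.09 and 0.07 ± 0.11, and from 200 to below 1000 CPM 0.07 ± 0.11 and -0.11 ± 0.17 (SD, n = 4). Over all levels the other expressed genes were lower in KO too, going from 0.65 ± 0.15 to 0.09 ± 0.08, and the gap between both kinds of genes overlapped between the genotypes. After sham surgery the long-interval genes had 0.54 in flox and 0.50 in KO animals, with overlap. A median of all expressed genes depends on how libraries are scaled: with TMM factors (edgeR's trimmed-mean scaling) in place of totals, the same 4 medians were 0.78, 0.37, 1.08 and 0.11, and the differences from the other genes 0.07, -0.02, 0.10 and 0.15.

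**Figure D1:**
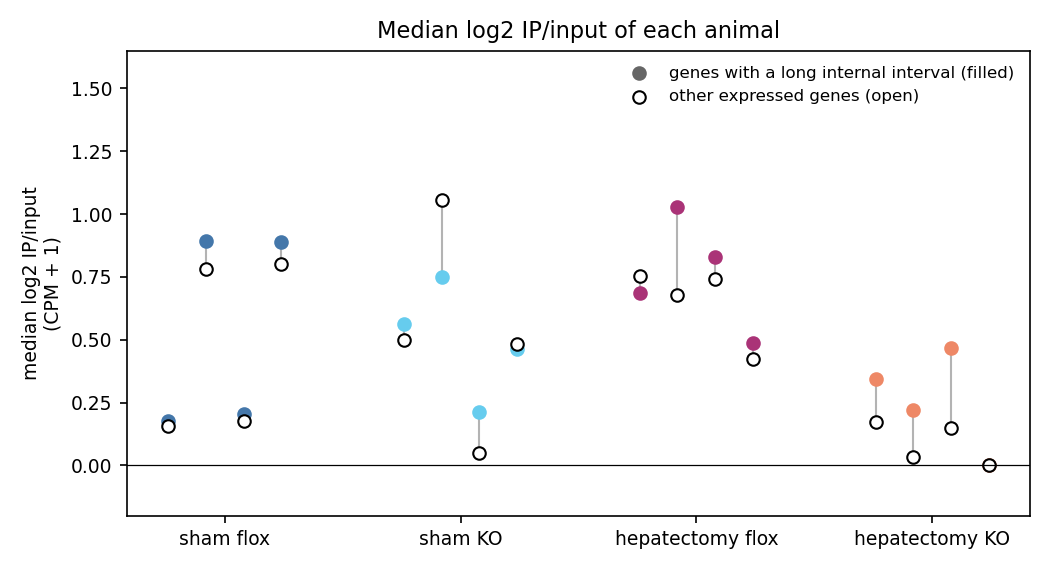
Median log2 ratio of IP to input (CPM plus 1) over the 2212 genes with a long internal interval and over the 3338 other expressed genes, 1 point for each of the 16 animals, by group. Both kinds of genes sit together within each group, and the hepatectomy KO animals are lowest, from 0.00 to 0.47 for the long-interval genes.

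By length of the interval, the median ratios of genes with an internal interval stood in order in the hepatectomy KO animals and not in the other groups. The values are a description without a test. They were taken among genes with at least 10 counts in both libraries of the animal, which leaves out the zeros. In the hepatectomy KO animals, genes whose longest internal interval was below 200 bases had a median log2 ratio of -0.27 ± 0.28, those from 200 to below 500 bases -0.23 ± 0.14, from 500 to below 1000 bases -0.18 ± 0.16, from 1000 to below 2000 bases -0.12 ± 0.13, from 2000 to below 4000 bases 0.05 ± 0.15, and from 4000 bases 0.12 ± 0.23 (SD, n = 4). Each class mean was above the one before it, and the animals of neighbouring classes overlapped. The animals of the shortest class ranged from -0.58 to 0.08 and those of the longest from -0.17 to 0.40. In the hepatectomy flox animals the same classes had -0.44 ± 0.10, -0.46 ± 0.08, -0.43 ± 0.06, -0.39 ± 0.12, -0.41 ± 0.15 and -0.21 ± 0.15. Only the class from 4000 bases stood higher there, and its animals (-0.37 to -0.06) lay above all animals of the classes from 200 to below 1000 bases. Genes with no internal interval had -0.18 ± 0.05 in that group. In the hepatectomy KO animals they had -0.09 ± 0.12, above the means of all classes below 2000 bases, so the order there leaves them out. In the sham animals the class means ran from -0.35 to -0.23 in flox and from -0.22 to -0.08 in KO animals, in no order of length. These classes differ in exon length and number of intervals as well. Against other expressed genes of the same range of exon length, the long-interval genes differed by -0.0039, -0.10, -0.10 and 0.12 in sham flox, sham KO, hepatectomy flox and hepatectomy KO animals. The 228 genes whose interval is a single listed exon differed from the others by -0.09 ± 0.32, -0.17 ± 0.41, -0.10 ± 0.16 and 0.35 ± 0.13 (SD, n = 4), thus below 0 in 3 groups and above it in 1.

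**Figure D2:**
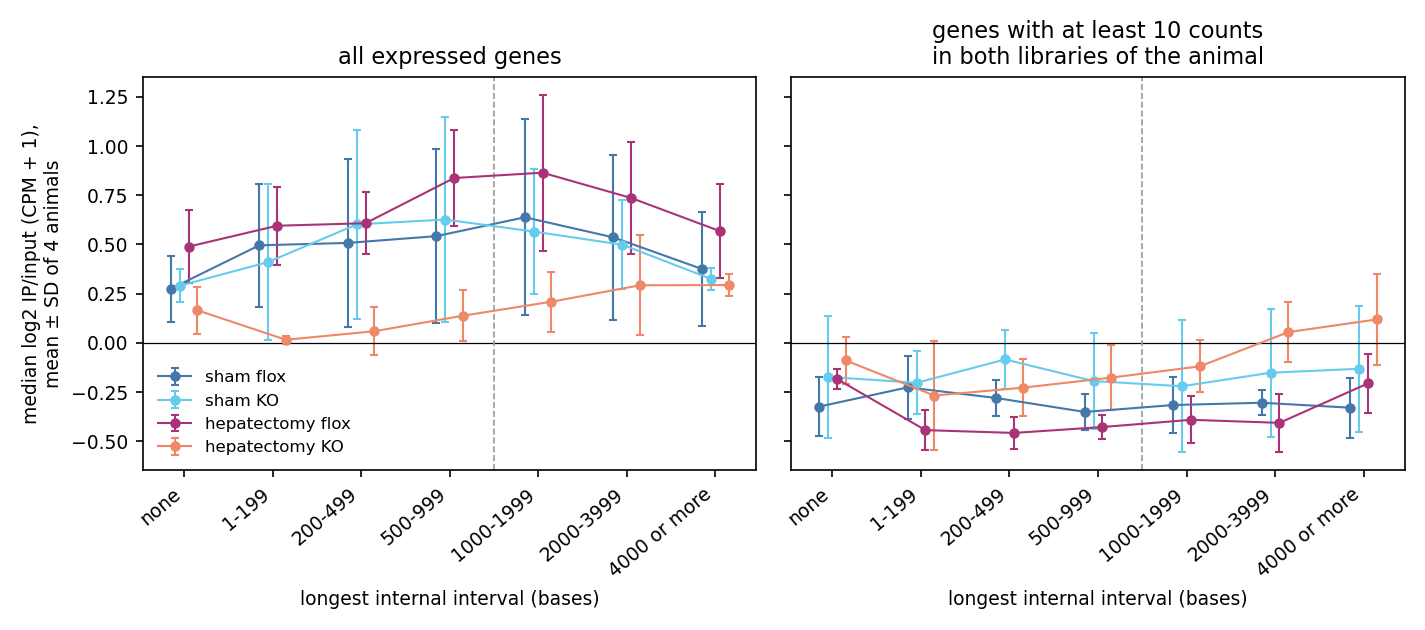
Median log2 ratio of IP to input (CPM plus 1) by the length in bases of a gene's longest internal interval, as mean and SD of the 4 animals of each group, for all expressed genes (left) and for genes with at least 10 counts in both libraries (right). The dashed line marks 1000 bases. On the right, the means of the hepatectomy KO animals are higher in each longer class of genes with an internal interval, from -0.27 to 0.12, whereas those of the other groups follow no such order.

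Gene by gene, IP/input differed from an even ratio in few of the 2212 genes, all of which were tested. With edgeR over all 32 libraries and a call at an adjusted p below 0.05 and an absolute log2 ratio of at least 1, 10 were called higher in IP in the sham flox animals (of all 14328 genes tested, 0.258% were called), 0 in the sham KO animals (0.0209% of all; 43 of the 2212 had an unadjusted p below 0.05, and DESeq2 called 24), and 36 in the hepatectomy flox animals (1.21% of all). In the hepatectomy KO animals 2 were higher and 5 lower in IP (0.328% of all). The long-interval genes were called in 0.452%, 0%, 1.63% and 0.316%, and the other 3338 expressed genes in 0.599%, 0.0899%, 2.22% and 1.17% of cases, in the same order. The calls were made against an even ratio after scaling, whereas the median of all tested genes was 0.82, 0.69, 1.06 and 0.28 on the log2 scale, again in the same order. In the hepatectomy flox animals a gene at that median already met the limit of size. The counts moved with the scaling: with library totals alone in place of TMM factors, 6 were called in the sham flox animals, 20 higher and 1 lower in the hepatectomy flox animals, and 3 higher and 4 lower in the hepatectomy KO animals. With upper-quartile factors, 6, 15 and 4 were called in these groups.

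The genes called higher in IP were ones whose inputs held almost nothing. All 36 of the hepatectomy flox animals had a mean input of 20.3 to 76.8 CPM over the 16 animals, yet 24 had 0 counts in all 4 inputs of that group and 35 in at least 3. Those 24 were thus taken only through their levels in the inputs of other groups. Each hepatectomy flox input also had a larger share of long-interval genes at 0 than any hepatectomy KO input, as given above. For Metap2, which clips the first methionine from new proteins, the inputs of the hepatectomy flox animals had 0, 0, 0 and 0 CPM and those of the hepatectomy KO animals 91.2, 106, 77.9 and 98.8 CPM. Its IP level was 29.97, 54.1, 62.95 and 41.3 CPM in the former and 142, 118, 132 and 106 CPM in the latter. The IP libraries thus held the transcript in every animal of both groups, whereas of these 2 groups only the KO inputs held it. Against a floor of 3 counts over the group, which covers counting error only, IP was 755-fold above input in the hepatectomy flox animals for Metap2. For the chromatin protein gene Atad2b it was 813-fold above. As 78.8% of the long-interval genes had an input at 0 and another at 100 counts or more within 1 group, such values do not bound the recovery by the antibody. Over the 24 genes at 0, this bound ran from 273 to 1050-fold with a median of 561-fold. Fgd6, an exchange factor for small GTPases, had 0, 0.169, 0 and 0 CPM in those inputs and 81.6, 54.7, 105 and 134 CPM in the IP libraries. Its inputs in the hepatectomy KO animals were 73.6, 124, 271 and 114 CPM, so all 4 lay above the flox inputs. Snrnp70, a protein of the U1 splicing particle, showed the same layout, with 0, 0, 0.0890 and 0 CPM in the inputs and 35.01, 35.3, 75.3 and 97.8 CPM in the IP libraries of the hepatectomy flox animals. Without hepatectomy flox replicate 4, 20 of the long-interval genes were called in place of 36.

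In the sham flox animals, 8 of the 10 called genes had 0 counts in all 4 inputs, with bounds for counting error alone of 340 to 886-fold over input. Tet2, which oxidises methylcytosine in DNA, had 0, 0, 0 and 0 CPM in the 4 inputs and 23.6, 46.5, 70.4 and 47.5 CPM in the IP libraries, whereas the inputs of the sham KO animals held 50.3, 93.4, 2.84 and 105 CPM. The IP values of the 2 groups, 92.4, 47.8, 78.01 and 62.5 CPM in sham KO, overlapped. The count of 10 rested on single animals, since it was 3, 4 and 2 without sham flox replicates 2, 3 and 4. Genes at 0 in a group's inputs and counted elsewhere were common (79.1% of the 2212 had an input at 0), and the part that the depth and making of the inputs play in these ratios was not tested.

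Genes that IP recovered less than input did in the hepatectomy KO animals were abundant transcripts. Fga had input levels of 37919, 30844, 44462 and 42164 CPM and IP levels of 14807, 15777, 9708 and 23951 CPM. Every IP value lay below every input value (log2 IP/input -1.52, SE 0.20, edgeR adjusted p = 1.07e-06). In the hepatectomy flox animals the per-animal log2 ratio of Fga was 0.19, 0.18, 0.21 and -0.28, close to even. Slco1b2, an importer of bilirubin, bile acids and drugs into hepatocytes, had inputs of 229, 819, 492 and 458 CPM and IP levels of 77.3, 162, 51.2 and 144 CPM in the hepatectomy KO animals, again without overlap (log2 IP/input -2.43, SE 0.48, edgeR adjusted p = 0.00242). Also lower in IP were Pzp (log2 IP/input -1.45, libraries overlapping) and the unnamed gene ENSMUSG00000037942 (-2.08), whose interval is a single exon. The 2 genes higher in IP were Ncl, which encodes the nucleolar protein nucleolin (2.07, libraries overlapping), and Kansl3, a subunit of a histone acetyltransferase complex. Kansl3 had 0 counts in all 4 inputs and was 649.6-fold higher in IP against the same floor, for counting error alone. Leaving out hepatectomy KO replicate 1, 2 or 3 gave 4, 4 and 2 calls in place of 7, and 9 without replicate 4. Among genes of 1000 CPM or more, 3 of 15 long-interval genes and 24 of 96 others were called lower in IP in this group.

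Of the 4 comparisons between IP libraries, that of KO and flox animals after hepatectomy gave the most calls among these genes. Compared within the 16 IP libraries, 33 of the 2212 long-interval genes fell in KO and 7 rose (of all 14020 genes tested, 1.5% were called), and in 30 of the 33 and 5 of the 7 the 4 KO animals lay all on one side of the 4 flox animals. The share called, 1.81%, was near that of all genes and below that of the other expressed genes, 4.47% (31 rose and 118 fell). After sham surgery none of the 2212 was called (0.0927% of all; 84 had an unadjusted p below 0.05, and DESeq2 called 12). Whether the genotypes differed by surgery was asked with an interaction term, added after the data were seen: none of the 2212 passed it in the IP libraries (4 of all 14020 genes did, and 141 of the 2212 had an unadjusted p below 0.05). These IP levels are amounts of RNA pulled down, and follow both the transcript's level and its methylation. In bulk liver, fewer cells of a type and less RNA in each cell cannot be told apart.

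**Figure D3:**
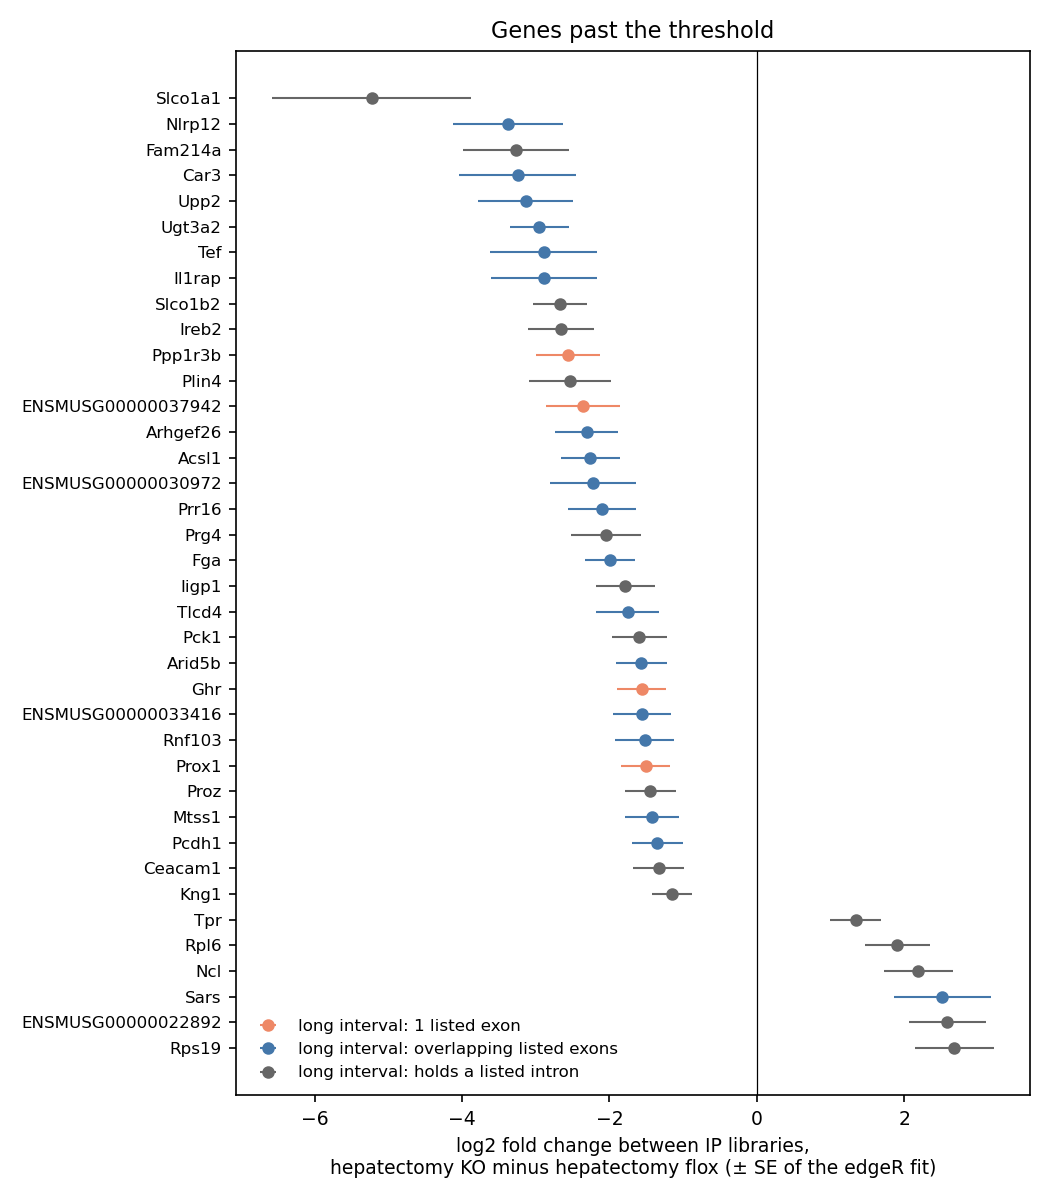
Log2 fold change between the IP libraries of hepatectomy KO and hepatectomy flox animals (point) with its standard error (bar) for long-interval genes that passed the edgeR test, coloured by the structure of the interval. More points lie below 0 than above it, and they run from -5.22 for Slco1a1 to 2.68 for Rps19.

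Genes of plasma proteins were among those that fell. Of the 10 long-interval genes in the list of secreted plasma proteins, 3 fell in KO and none rose, and the median log2 difference of the 10 was -1.03 against 0.01 for all genes tested. The IP level of Fga was 62855, 59303, 51348 and 36964 CPM in the hepatectomy flox animals and 14807, 15777, 9708 and 23951 CPM in the hepatectomy KO animals. All KO values lay below all flox values, a 3.98-fold drop (log2 difference -1.99, SE 0.34, edgeR adjusted p = 0.00170). The sham animals had 21889.7, 20798, 47673 and 22418 CPM in flox and 24826, 35876, 40817 and 21371 CPM in KO and overlapped with each other. In the inputs Fga had 55157, 52227, 44268 and 44924 CPM in hepatectomy flox and 37919, 30844, 44462 and 42164 CPM in hepatectomy KO animals, and these overlapped at the edge (log2 difference -0.13, edgeR adjusted p = 0.584). Kng1, the precursor of bradykinin, also fell (-1.15). Proz, a vitamin K-dependent plasma protein outside the list, fell as well (-1.44). Apob was at 32691, 29115, 32556 and 35846 CPM in flox and 15839, 14990.1, 6361 and 35597 CPM in KO animals, where replicate 4 lay among the flox animals and the other 3 below them, and did not pass the test (log2 difference -1.11, edgeR adjusted p = 0.151). Without replicate 4 it did (log2 difference -1.66, SE 0.34, edgeR adjusted p = 0.00490).

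Transporters and enzymes are described next, picked from the 33 after their values were seen. Slco1a1, an importer of organic anions, had the largest difference of the 33 (log2 difference -5.22, SE 1.35, edgeR adjusted p = 0.0473), with 187, 148, 188 and 217 CPM in flox and 0, 0.0513, 0.0606 and 24.3 CPM in KO animals after hepatectomy. All 4 KO animals were below the flox animals, and 1 of them, replicate 4, held nearly all the counts of its group. The call was lost under 9 of 15 alternatives. Without replicate 4 it was kept (log2 difference -10.35, SE 1.10, edgeR adjusted p = 2.12e-06). As the KO counts were then at or near 0, that fitted size is no bound. The next largest falls were those of Nlrp12, an inhibitor of inflammatory signalling (-3.38), and Fam214a (-3.27). Slco1b2 had 679.6, 498, 591 and 499 CPM in flox and 77.3, 162, 51.2 and 144 CPM in KO animals, a 6.36-fold drop without overlap (log2 difference -2.67, SE 0.37, edgeR adjusted p = 0.00013). Ugt3a2, an enzyme that joins sugars to small molecules, had 185, 199, 190.2 and 164 CPM against 34.8, 37.8, 17.7 and 24.5 CPM. Its groups were narrow and well apart (log2 difference -2.95, SE 0.40, edgeR adjusted p = 0.000112), and its inputs in the same animals, 219, 253, 64.8 and 165 CPM and 115, 209, 295 and 77.9 CPM, overlapped. Upp2, a uridine phosphorylase (-3.13), and Car3, a carbonic anhydrase (-3.25, or -5.63 without replicate 4), also fell without overlap. Acsl1, which activates long-chain fatty acids, had 691, 610.1, 1713 and 1456 CPM in flox and 359, 359.5, 101 and 292 CPM in KO animals (-2.26), and Pck1, the enzyme of gluconeogenesis, 1572, 1679, 3135 and 2657 CPM and 1158, 1429, 401 and 606 CPM (-1.59). In both, every KO animal was below every flox animal. Plin4, a coat protein of lipid droplets, fell by 2.53. In the list of lipid uptake and handling, none of 9 long-interval genes passed the test.

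Of the 33, 4 had a single listed exon as their long interval, and 3 of them have a name. Ppp1r3b, which brings protein phosphatase to glycogen in the liver, has 1 exon of 1670 bases at chr8:35377857-35379526. Its IP level was 247, 339.9, 713 and 524 CPM in hepatectomy flox and 81.9, 136, 31.1 and 120.4 CPM in hepatectomy KO animals, without overlap (log2 difference -2.57, SE 0.43, edgeR adjusted p = 0.00139). Ghr, the growth hormone receptor, has 1897 bases at chr15:3384309-3386205, and had 515, 438, 598 and 705 CPM in flox and 215, 243, 175 and 286 CPM in KO animals (log2 difference -1.56, SE 0.33, edgeR adjusted p = 0.0106). Prox1, a transcription factor of hepatocyte identity, has 1792 bases at chr1:190160522-190162313, and had 668, 512, 461 and 567 CPM against 191, 249.6, 150.3 and 351 CPM (log2 difference -1.51, SE 0.34, edgeR adjusted p = 0.0159). In both genes the lowest flox animal lay above the highest KO animal. Ghr was the 1 called gene among 15 of the list of insulin and growth signalling, whose median was -0.60. The fourth was ENSMUSG00000037942 (-2.36).

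**Figure D4:**
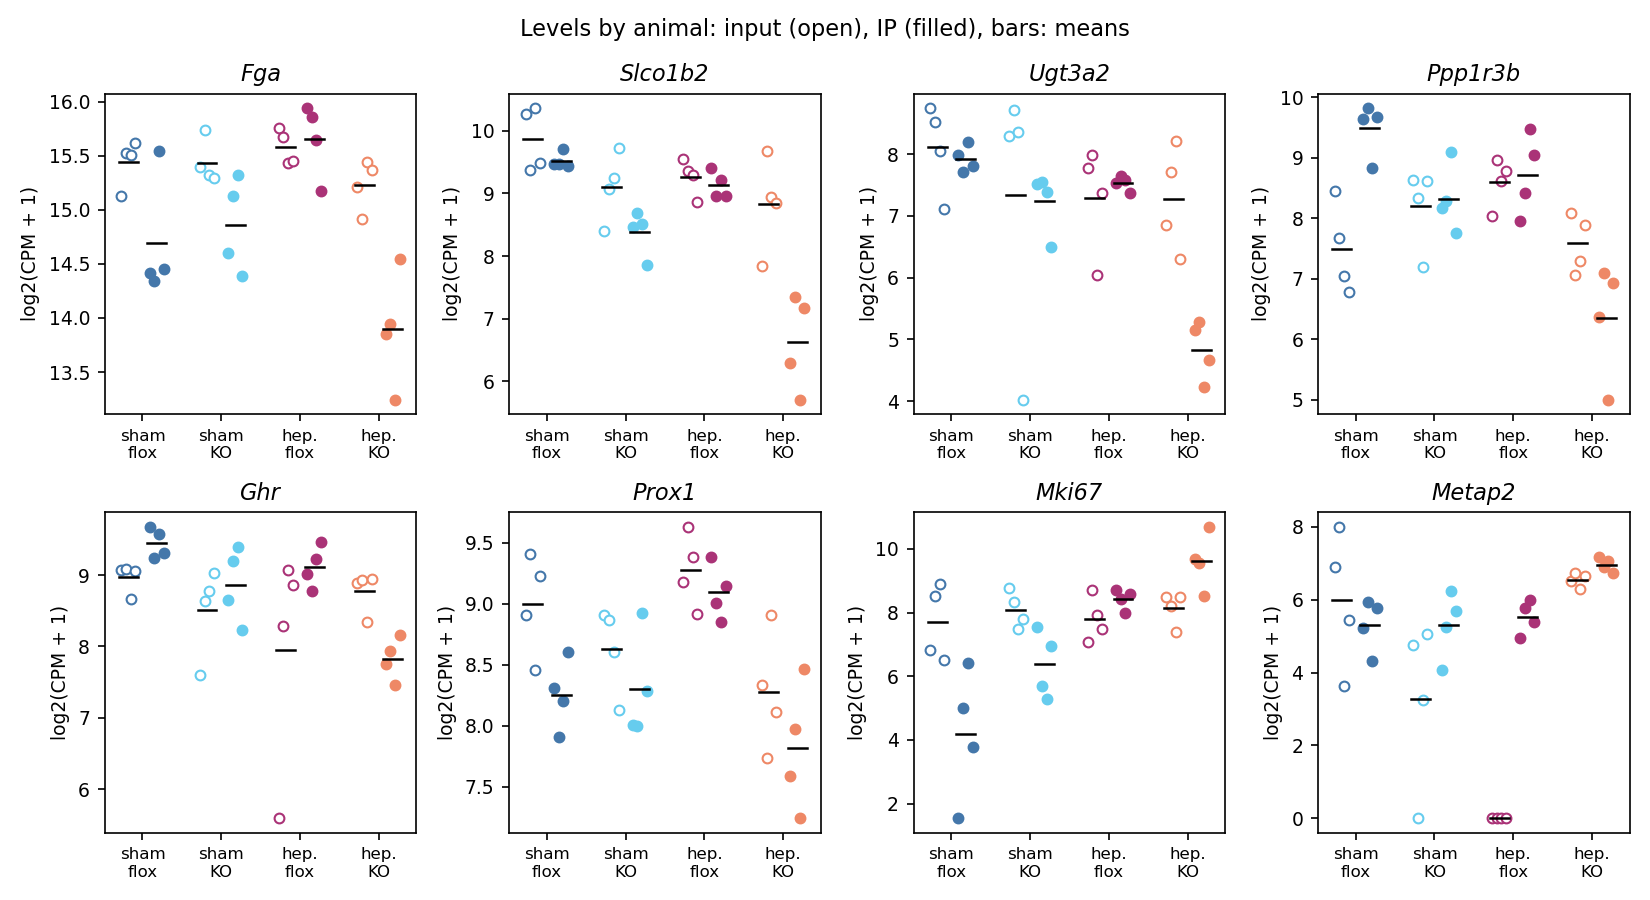
Level of 8 genes in each of the 16 animals as log2(CPM + 1), with inputs as open and IP libraries as filled points and group means as bars. In Fga, Slco1b2, Ugt3a2, Ppp1r3b, Ghr and Prox1 the hepatectomy KO IP points lie below those of hepatectomy flox animals, Mki67 is highest after hepatectomy, and the inputs of Metap2 are at 0 in the 4 hepatectomy flox animals.

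Others that fell encode regulators. Ireb2, which senses iron and binds mRNA (-2.66), Tef, a transcription factor of the circadian output (-2.89, animals overlapping), Il1rap, the shared chain of the interleukin-1 receptor (-2.88), and Ceacam1, an adhesion protein of hepatocytes (-1.33), were among them. Without hepatectomy KO replicate 4, the log2 difference of Il1rap was -4.24. Arid5b, a DNA-binding partner of a histone demethylase (-1.57), was the only called gene of 53 chromatin regulators, whose median of 0.03 was close to that of all genes. Among the 7 that rose were Rps19 (2.68) and Rpl6 (1.90), proteins of the ribosome, Sars, which charges serine tRNA (2.52), Tpr, a nuclear pore protein (1.34), Ncl (2.19) and the unnamed ENSMUSG00000022892 (2.58). Ribosomal protein genes have many near-identical pseudogene copies, so their counts are uncertain. Ncl had 432, 464, 572 and 573 CPM in flox and 2793, 2647, 5249.5 and 477 CPM in KO animals, of which replicate 4 lay among the flox animals. Without it, the log2 difference of Ncl went from 2.19 to 2.54.

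The counts of 33 and 7 moved with scaling and with single animals, while none of the 38 called genes that are reported here changed direction under the alternatives. With library totals alone, 12 rose and 14 fell, and the median of all genes went from 0.01 to 0.28. Without hepatectomy KO replicate 4, 96 long-interval genes were called. Without hepatectomy KO replicates 1 and 3 in turn, 24 and 16 were called, and without hepatectomy flox replicates 3 and 4 in turn, 21 and 23. Calls concentrated in abundant genes of both kinds. From 20 to 100 CPM of mean input, 6 of 1673 long-interval genes and 25 of 2516 others fell. From 200 to 1000 CPM, 17 of 166 and 49 of 295 fell, and from 1000 CPM 5 of 15 and 24 of 96. Without regard to the test, the 4 KO animals lay below the 4 flox animals in 110 and above them in 152 of the 2212 long-interval genes, and in 260 and 231 of the 3338 others. The share of genes without overlap was not taken over all tested genes. The 1.5% of all genes given above is a share of calls and is not comparable, so these counts are a description only. From 200 CPM the balance of the long-interval genes turned, with 37 below and 15 above of 181. Of the 391 others from 200 CPM, 100 lay below and 30 above, the same direction as over all levels.

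**Figure D5:**
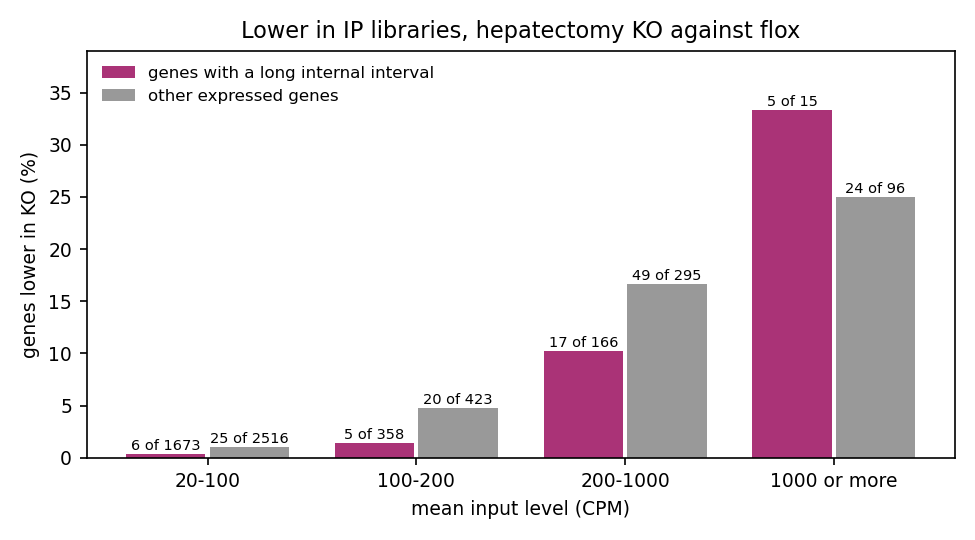
Share of genes that fell in the IP libraries of hepatectomy KO against hepatectomy flox animals (edgeR adjusted p below 0.05), by mean input level in CPM, for long-interval and other expressed genes, with counts over the bars. The share grows with level in both, to 5 of 15 and 24 of 96 genes from 1000 CPM.

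Cell-type markers moved with this contrast in the IP libraries. In the IP libraries after hepatectomy, the 7 hepatocyte markers summed to 30719 to 46345 CPM in flox and 12272 to 29852 CPM in KO animals, without overlap, whereas in the inputs they summed to 39130.3 to 44522 and 35973 to 42913 CPM. The 7 stellate cell markers summed to 213 to 389 CPM in flox and 613 to 849 CPM in KO IP libraries, also without overlap. The 8 Kupffer cell markers (353 to 588 and 468 to 1143 CPM), the 7 markers of sinusoidal endothelium (228 to 309.7 and 264 to 622 CPM), the 7 of other leukocytes (5.16 to 74.8 and 67.2 to 483 CPM), the 4 found of 5 bile duct markers (8.98 to 170.2 and 54.4 to 198 CPM) and the 5 of red cells (31.8 to 164 and 26.7 to 57.2 CPM) overlapped. Of the leukocyte markers, Cd79a and S100a9 were at 0 in all 4 flox libraries and Cd3e in all 4 KO libraries. Without hepatectomy KO replicate 4, the KO sums were 12272 to 21977 CPM for hepatocyte and 613 to 849 CPM for stellate cell markers, and those for Kupffer cells (927 to 1143 CPM) and sinusoidal endothelium (392 to 622 CPM) then lay above the flox animals without overlap. In the inputs after hepatectomy, with all animals, these sums overlapped between flox and KO. Stellate cell markers had 239 to 563 and 418 to 810 CPM there, and Kupffer cell markers 23.4 to 862 and 129 to 691 CPM. Sinusoidal endothelium had 69.9 to 610 and 105 to 154 CPM, with means of 333 and 122 CPM, lower in KO. The part of the cells' makeup in the genes that fell and rose was not tested. The long-interval genes together took 28.4% ± 0.60 of all IP counts in hepatectomy flox and 25.3% ± 2.28 in hepatectomy KO animals (SD, n = 4), or 24.3% ± 1.61 without replicate 4 (n = 3). Without Fga and Apob the shares were 19.9% ± 0.89 and 21.9% ± 0.65.

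Hepatectomy was set against sham within the IP libraries of each genotype. These contrasts share the hepatectomy libraries of each genotype with the contrast above, so their values are given side by side and not as separate support. In the flox animals 1 of the 2212 genes was called (0.0285% of all). This was Ckap2l, a protein of the mitotic spindle with a single long exon at chr2:129284857-129286100. It had 0, 0, 0 and 0.610 CPM in the sham and 43.6, 50.04, 31.9 and 28.4 CPM in the hepatectomy animals, all of the latter higher (log2 difference 7.20, SE 1.32, edgeR adjusted p = 0.0425), and as its sham counts were at or near 0 the fitted size is no bound. The call was lost without sham flox replicates 1 or 2 or hepatectomy flox replicates 1, 2 or 3, and 4 genes were called without sham flox replicate 4.

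In the KO animals 3 of the 2212 genes rose and 9 fell after hepatectomy (0.635% of all genes were called). Mki67 had 187, 51.3, 38.3 and 123 CPM in the sham KO and 821, 747, 366 and 1665 CPM in the hepatectomy KO animals, without overlap, an 8.75-fold rise (log2 difference 3.13, SE 0.69, edgeR adjusted p = 0.0302). In flox animals it had 1.91, 30.8, 84.6 and 12.8 CPM in sham and 416, 344, 251 and 383 CPM in hepatectomy animals, also without overlap, but did not pass the test over all genes (log2 difference 3.45, edgeR adjusted p = 0.0639). Without sham flox replicate 3 Mki67 passed it (edgeR adjusted p = 0.00764), and without the 2 sham flox animals aged 77 days it did not (edgeR adjusted p = 0.680). It was the 1 called gene of 5 in the list of cell cycle and DNA repair, whose median was 2.46 in KO animals. Cenpf, a kinetochore protein, had a log2 difference of 4.37 in flox animals (edgeR adjusted p = 0.0962) and Aspm, a spindle protein, 4.63 (0.548). In flox animals Mki67, Cenpf and Aspm were each called under 3 alternatives and not under 12. DESeq2 was among the 3 (DESeq2 adjusted p = 0.00106, 0.00254 and 0.00371, in that order). Calu, a calcium-binding protein of the endoplasmic reticulum (1.82), and Ncl (2.07, animals overlapping) also rose in KO animals.

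The 9 that fell in KO animals after hepatectomy were Upp2 (-3.73), Ugt3a2 (-2.57), Ireb2 (-2.16), Ppp1r3b (-1.998), Slco1b2 (-1.78), Pck1 (-1.71), Acsl1 (-1.65), Plg, which encodes the clot-dissolving plasminogen (-1.36), and Kng1 (-1.24), all with the animals apart. Slco1b2 had 351, 413, 362 and 230.3 CPM in sham KO animals, and Ugt3a2 182, 186, 167 and 89.7 CPM, above all 4 hepatectomy KO animals in both genes. The hepatocyte markers moved with this contrast too: they summed to 31023 to 46389 CPM in the sham KO and 12272 to 29852 CPM in the hepatectomy KO IP libraries, without overlap, and their part in these falls was not tested. Of these 12 calls, 9 were also among the 40 between genotypes after hepatectomy (75% and 22.5%), and both contrasts use the same 4 hepatectomy KO libraries. The 12 calls were 28 without hepatectomy KO replicate 2 and 46 without replicate 4, and 6 and 4 without replicates 1 and 3. Without sham KO replicates 2 and 3 in turn, they were 3 and 6. An interaction of genotype and surgery was not called for any of these genes.

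The difference between KO and flox in the IP/input ratio itself, fitted over all 32 libraries, was called in 26 of the 2212 genes after hepatectomy, all lower in KO (0.712% of all genes), and in 2 after sham surgery, Zfp62 and Eef1d (0.0209% of all). The 26 were of 2 kinds. In 21 the mean input was below 100 CPM, and in all 21 at least 3 of the 4 hepatectomy flox inputs were at 0, so the difference came with counts that were absent in one group's inputs. In 15 of the 26, all 4 hepatectomy flox inputs were at 0, so these reached the mean of 20 CPM only through other groups. The choice of genes thus lets in this layout, and such calls are given as a description. After hepatectomy, every flox input had a larger share of long-interval genes at 0 than every KO input, as given above. The part of that difference between the inputs in these calls was not tested. Of the 26, 20 (76.9%) were also called in the IP/input ratio of the hepatectomy flox animals (55.6% of those 36), which uses the same libraries. Metap2 and Fgd6, described above, were among them. The other 5 were the abundant genes Slco1b2 (-2.66), Acsl1 (-2.63), Fga (-1.98), Pck1 (-1.67) and Apob (-1.28). Fga had log2 ratios of 0.19, 0.18, 0.21 and -0.28 in flox and -1.36, -0.97, -2.20 and -0.82 in KO animals, without overlap (log2 difference -1.98, SE 0.28, edgeR adjusted p = 7.31e-06). Apob had 0.35, 0.19, 0.29 and 0.48 and -0.66, -0.41, -1.79 and 0.42, where KO replicate 4 lay among the flox animals (log2 difference -1.28, SE 0.29, edgeR adjusted p = 0.0209). Without that animal the difference of Apob was -1.48, and with library totals it was -0.69 and the call was lost. Of the 5, all but Apob were also called between the IP libraries.

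These calls depended on scaling more than those within the IP libraries did. The median of all genes in the KO against flox difference after hepatectomy was -0.78 with TMM factors, -0.29 with library totals and -0.02 with upper-quartile factors, and 26, 7 and 3 of the long-interval genes were called. The median of these genes was -0.60, -0.03 and 0.42, so its direction turned with the scaling. The 26 calls were 15 without hepatectomy flox replicate 4, and 5, 8, 5 and 10 without hepatectomy KO replicates 1, 2, 3 and 4. With each animal as a block, pairing its input and IP library, 11 were called. After sham surgery the 2 calls were 1 without sham flox replicate 4, 1 without sham KO replicate 4, and none without sham KO replicates 2 or 3.

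Between hepatectomy and sham, the IP/input ratio differed in 11 of the 2212 genes in flox animals, 7 higher and 4 lower after hepatectomy (0.181% of all), and in none in KO animals (0.0349% of all; 49 had an unadjusted p below 0.05, and DESeq2 called 20). All 11 had at least 3 of 4 inputs at 0 in one of both groups and a mean input below 100 CPM, and the 11 were 2 with the animal as a block. In 5 of the 7 higher and 3 of the 4 lower, all 4 inputs of one group were at 0. These too reached the mean of 20 CPM only through other groups and are given as a description. Single animals moved the count too: it was 4, 4, 7 and 4 without sham flox replicates 1 to 4 and 6 without hepatectomy flox replicate 1. Eef1d, a translation elongation factor subunit, was lower after hepatectomy and Metap2 higher. Metap2 was also the 1 long-interval gene of 2212 called in the interaction of genotype and surgery in IP/input (log2 -10.71, SE 2.18, edgeR adjusted p = 0.0406; 6 of all 14328 genes were called). Its inputs were 117, 257, 11.5 and 42.2 CPM in sham flox and 26.1, 0, 8.53 and 32.2 CPM in sham KO animals, and 0 in all hepatectomy flox animals. Metap2 thus reached the mean of 20 CPM only through other groups, and its interaction is a description too.

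Between input libraries, which give transcript levels without the antibody, none of the 2212 genes was called in any of 4 comparisons, all of them having been tested. The genes were chosen by the mean of these same 16 inputs, and a gene can reach that mean through 1 group where it is high. The counts and p-values between inputs are therefore a description and support no other result. For KO against flox the share of all 8769 genes called was 0.0114% after sham surgery and 0.0342% after hepatectomy, and for hepatectomy against sham 0% in flox and 0.0114% in KO animals. In the same order, 90, 110, 162 and 16 of the 2212 genes had an unadjusted p below 0.05 with edgeR, and DESeq2 called 76, 102, 163 and 7 at an adjusted p below 0.05. The 2 tools thus gave different counts, and the absence of an edgeR call does not show that the levels were equal. Slco1b2, for example, had 744, 656, 627 and 463 CPM in hepatectomy flox and 229, 819, 492 and 458 CPM in hepatectomy KO inputs, which overlapped (log2 difference -0.14, SE 0.45, edgeR adjusted p = 1).

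The share of genes with a long internal interval is given here for each list of genes by function, without a test. Among expressed genes of each list, they were 53 of 59 chromatin regulators (89.8%), 23 of 27 cytoskeletal and scaffold proteins (85.2%), 15 of 20 nuclear speckle and splicing proteins (75%), 5 of 7 in cell cycle and DNA repair (71.4%), 15 of 22 translation and cytoplasmic RNA proteins (68.2%), 14 of 22 nuclear receptors and coregulators (63.6%), 15 of 28 in insulin and growth signalling (53.6%), 9 of 20 in lipid uptake and handling (45.0%) and 10 of 37 secreted plasma proteins (27.0%), against 39.9% of all expressed genes. The machinery of m6A was itself included, with 3 of 5 expressed writer genes (Zc3h13, Wtap and Virma), both erasers (Fto and Alkbh5) and all 6 expressed readers, among them Ythdf1, Ythdf3 and Ythdc1. Of the exon junction complex and its partners, 4 of 11 were included. Virma, the subunit that directs the methyltransferase, had a log2 difference of -0.81 between KO and flox IP libraries after hepatectomy, Wtap 0.28 and Zc3h13 -0.45, none past the test. In the 12 comparisons of IP/input and of IP libraries, no long-interval gene of the writers, erasers, readers, exon junction complex, splicing proteins, nuclear receptors, lipid handling or cytoskeletal lists was called.

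The called genes of the lists were few. In the IP/input ratio the chromatin regulators Atad2b and Arid2 were called in the hepatectomy flox animals and Tet2 in the sham flox animals, all with inputs at or near 0. The median log2 difference of the lists between KO and flox IP libraries after hepatectomy was -1.03 for plasma proteins, -0.60 for insulin and growth signalling, -0.40 for lipid handling, -0.32 for nuclear receptors, -0.06 for splicing proteins, 0.33 for translation, 0.37 for cytoskeletal proteins and 0.62 for the cell cycle. These stand beside -0.11 for all 2212 genes and 0.01 for all genes tested, and with library totals the latter would be 0.28.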

How the data were processed

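The deposited table holds estimated counts for 55421 genes by Ensembl identifier in 32 libraries, not scaled between libraries. The submitters' processing notes name fastp and STAR, a read trimmer and an aligner. Their versions, the counting program, its strand setting, the annotation and the genome build are named in no source used here. Without strand, reads of overlapping antisense genes cannot be told apart. Genes were named by position from RefSeq on GRCm38.p6, which named 33971 genes (677 after a shift of 1000000 bases) and 2086 of the 2212 long-interval genes, 2071 of them as protein-coding. The table's length column equalled the merged exon length in all 55421 genes.

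Counts were rounded to whole numbers and tested in R 4.3.3 with edgeR 4.0.16 (normalised by TMM, filterByExpr with a minimum count of 10, 1 coefficient a group, quasi-likelihood F-tests, Benjamini-Hochberg over all genes tested, threshold 0.05) over the 16 inputs, the 16 IP libraries or all 32. For the IP/input ratio of a group, not for differences between groups, a call also needed an absolute log2 ratio of 1. Fitted sizes at or near 0 counts depend on the prior count of 2, so bounds use a floor of 3 counts over the group. Bounds cover counting error only, since PCR copies without molecular identifiers do not count separate molecules. They do not cover the unevenness between the inputs of a group. Medians of log2 ratios use a pseudocount of 1 CPM. Alternatives were DESeq2 1.42.0, other scalings, filters and limits, blocks and leaving out each animal. The scripts were tested on simulated counts. Named were the 12 longest intervals, the 12 highest inputs, in each comparison up to 5 called genes each way whose libraries did not overlap, the genes beside each limit, and up to 4 genes of each list with the highest input. Other called genes were named after their values were seen, and some genes within these rules are not reported here. The genes, the lists and the tests were chosen with earlier results of these data known.

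Deviations of the input and IP library of an animal from their group means correlated at -0.09 to 0.28 (median 0.06, 181 genes from 200 CPM). They pair by animal, as both come from 1 liver. Equal replicate numbers in different groups correlated at 0.096 to 0.47 between the IP libraries of sham KO and sham flox animals (3 of 4 pairs above 0.1) and in the other contrasts at -0.33 to 0.14 (1 of 28 pairs above 0.1), and were not taken to pair animals. No sequence of an exon is printed, as no genome was used here.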

Additional observations from a re-analysis of the deposited data

Results flagged for a closer look

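In 17 of 128 groups of 4 values tested, 1 animal lay far from the other 3 of its group by Dixon's criterion at 95%, which chance gives in about 1 of 20 groups. The long-interval genes took 27.1% of the IP counts of 1 sham flox animal (the others 24.8 to 25.1%) and 28.1% in 1 sham KO animal (others 25.4 to 25.8%). In 1 hepatectomy KO IP library 16.5% of them were at 0 (others 0.316 to 2.22%).

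The rest were IP levels of single genes. Among plasma protein genes, the animal apart had 47673 CPM in sham flox (others 20798 to 22418 CPM) for Fga, 3364 CPM in sham flox (others 1679.7 to 1866 CPM) for Pzp, 869.6 CPM in sham flox (others 552 to 567 CPM) for Cp, which carries copper, and 1643 CPM in hepatectomy flox (others 1904 to 1913 CPM) for Fn1, which encodes fibronectin. Among transporters and enzymes it had 72.2 CPM in sham KO (others 2.22 to 12.03 CPM) and 24.3 CPM in hepatectomy KO (others 0 to 0.0606 CPM) for Slco1a1, 837 CPM in sham flox (others 694 to 709.9 CPM) for Slco1b2, and 602 CPM in hepatectomy flox (others 261 to 270.0 CPM) and 153 CPM in hepatectomy KO (others 2.56 to 19.7 CPM) for Car3. For Nlrp12 it had 70.7 CPM in sham KO (others 115 to 117 CPM), for Fam214a 151 CPM in sham flox (others 303 to 326 CPM), for Calu 539.7 CPM in hepatectomy KO (others 204 to 227 CPM), and for Rps19 23.6 CPM in sham KO (others 58.9 to 66.1 CPM) and 262 CPM in hepatectomy KO (others 112 to 119.7 CPM).

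The genotype difference in IP/input differed between hepatectomy and sham for Metap2 by -10.71 on the log2 scale, an interaction with an edgeR adjusted p of 0.0406. The size rests on 4 inputs at 0, and the interaction was not fitted with the animal as a block. Those 4 are all inputs of the hepatectomy flox animals, so Metap2 reached the mean of 20 CPM only through other groups. The choice of genes lets in this layout, and the value is given as a description.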

How the results depend on the processing

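The difference in median log2 IP/input between the long-interval and the other genes moved with the choice of genes. In the sham flox animals it went from 0.06 to 0.0031 with intervals of at least 2000 bases, 0.013 with genes chosen by mean IP level, -0.0039 against other genes of the same exon length, -0.067 against genes with a first or last interval of 1000 bases, -0.0077 with 10 counts in both libraries, -0.087 for single listed exons and -0.30 from 1000 CPM. In the hepatectomy flox animals it went from 0.11 to -0.099, -0.096, -0.10 and -0.22 for exon length, first or last intervals, single exons and 1000 CPM, and in the hepatectomy KO animals from 0.17 to 0.35 for single exons and -0.22 from 1000 CPM. Leaving out 1 animal gave 0.047 to 0.078, -0.088 to 0.068, 0.027 to 0.17 and 0.12 to 0.23 in sham flox, sham KO, hepatectomy flox and hepatectomy KO animals. With the causes of these shifts and of those below not tested, the values are given only.

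Counts of called long-interval genes are given in the order IP/input in the 4 groups (sham flox, sham KO, hepatectomy flox, hepatectomy KO; 10, 0, 36 and 7), IP/input difference (KO against flox in sham and hepatectomy, hepatectomy against sham in flox and KO; 2, 26, 11 and 0), IP libraries (0, 40, 1 and 12) and inputs (0 each) in the same 4 contrasts. With DESeq2 they were 123, 24, 135 and 56, then 91, 128, 185 and 20, then 12, 119, 18 and 68, then 76, 102, 163 and 7. With library totals alone, IP/input gave 6 in sham flox and 21 in hepatectomy flox, the difference 1, 7 and 7 in the first 3 contrasts, IP libraries 2, 26 and 7 (KO against flox in sham and hepatectomy, hepatectomy against sham in KO), and inputs 1 for KO against flox after hepatectomy. With upper-quartile factors IP/input gave 6, 1, 15 and 4, the difference 3 and the inputs 1 for KO against flox after hepatectomy. Without a filter on low counts, IP/input gave 29 in sham flox, the difference 11, 24 and 1 (KO against flox in sham, hepatectomy against sham in flox and KO), IP libraries 10, 77, 14 and 49, and inputs 4, 1, 1 and 1. Testing only genes at a mean input of 20 CPM gave 23 and 11 in IP/input of sham flox and hepatectomy KO, and in IP libraries 1 for KO against flox in sham and 27 for hepatectomy against sham in KO animals.

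With each animal as a replicate block, which pairs input and IP, the difference gave 11, 2 and 2 in the last 3 contrasts, and the block moved no other count of IP/input calls by over 1.5 times. The replicate numbers across groups do not pair animals. With that number as a replicate block, IP libraries gave 1 for KO against flox in sham and inputs gave 4, 1, 1 and 1. Without the 2 sham flox animals aged 77 days, IP/input gave 5 in sham flox, the difference 1, 0 and 1 (KO against flox in sham, hepatectomy against sham in flox and KO), IP libraries 0 for hepatectomy against sham in flox, and inputs 1, 1 and 1 in all but hepatectomy against sham in flox. Leaving out 1 animal gave 2 to 11, 0 to 1, 20 to 35 and 2 to 9 in IP/input, 0 to 3, 5 to 19, 4 to 11 and 0 to 1 in the difference, 0 to 4, 16 to 96, 0 to 4 and 3 to 46 in IP libraries, and 0 to 5, 0 to 1, 0 to 2 and 0 to 2 in inputs. Of the called gene results, 142 were followed over the alternatives: of their 1922 values 0 turned direction, 1154 still passed the threshold and 768 no longer did. Limits of depth: genes below 100 CPM varied by 2.93 log2 units (median SD) between inputs of a group, so absence of a call there is weak, and no count separates the long interval from the rest of a gene. The alternatives with 10 counts in both libraries, single listed exons, intervals without an intron and 200 or 1000 CPM, and the interaction, were chosen after seeing the data.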
